A study of Mus musculus with 6 samples.

Results

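Fibroblast growth factor (FGF) signalling and its Sprouty feedback was examined in lung endothelial cells (EC) by following 10 genes, the ligands Fgf1, Fgf7 and Fgf10, the receptors Fgfr1, Fgfr2 and Fgfr3, and the inhibitors Spry1, Spry2, Spry4 and Dusp6. The genes were found by symbol among the 12623 genes of the table, where they held 17 of 17241 transcript rows. EC form the inner lining of blood vessels. They were isolated by flow cytometry from C57BL/6N mouse lungs, 3 libraries of infant and 3 of young adult animals, to compare growing with resting vessels. According to the methods of the study, the sorted cells were alive, carried CD31 and CD34, and had been depleted of cells with PTPRC, LYVE1, PDPN or LY76. All 6 libraries shared this strain, tissue and gate, and the labels give no transgene or treatment for either group. Whether several animals were pooled in a library was not given in the sources used here.

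FGFs are secreted or released proteins that bind receptor tyrosine kinases together with heparan sulfate chains on the cell surface. The activated receptor passes its signal through adaptor proteins and the RAS-ERK cascade to transcription factors of the ETS family. ERK activity in turn raises the transcription of its own inhibitors, among them the Sprouty proteins, which act on the receptor-to-RAS step, and DUSP6, a phosphatase that removes phosphate from ERK. In the developing lung, Fgf7 and Fgf10 are known as products of the mesenchyme that act on the epithelium through FGFR2, and Fgf10 is required for branching of the airways.

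Between the infant and young adult libraries of sorted EC, Fgf7, Fgf10, Fgfr1 and Spry1 fell. In contrast, Fgfr3 rose to about 2.04 times its infant level and became a still larger share of the receptor transcripts. Age and the sex makeup of the libraries cannot be told apart in these differences. The part of other cell types in them was not tested. For Fgf1, Fgfr2, Spry2, Spry4 and Dusp6 no difference passed the test. Thus 4 of the 10 genes were called lower and 1 higher, where 8.1% of all 12458 tested genes were called lower and 3.33% higher, or 11.4% in either direction. Called means an adjusted p under 0.05 (limma, Benjamini-Hochberg over all tested genes) together with a difference of more than 0.81 in log2(RPKM + 1). This takes the size of the fold threshold from the study but, because of the pseudocount, is stricter for genes with low RPKM. RPKM scales reads to the transcript length in kilobases and to 1000000 mapped reads. Values are listed in the order of replicates 1 to 3, and infants and young adults stand for the libraries of each group. Without the fold threshold the same 5 members passed, against 25.5% of all genes. In 7 of the 10 genes the values of the age groups did not overlap, which also held for 43.4% of all tested genes. Fgf7, Fgf10 and Fgfr1 had been named by the study on these same libraries. Neither their direction nor their place among the 4 lower calls is therefore independent evidence.

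The stretches upstream of the called genes are shown because these genes moved with age. RefSeq promoter windows (build GRCm38.p6, the mm10 coordinates) existed for 4 of the 5 called genes. Each line gives the 250 bases before the annotated start on the plus strand, with GC boxes (GGGCGG on either strand) in capitals. For Fgfr3 the window of the upstream one of the annotated starts is shown. They lie at chr2:126034408-126034657 for Fgf7, chr13:118714449-118714698 for Fgf10, chr3:37639697-37639946 for Spry1 and chr5:33721474-33721723 for Fgfr3.
Fgf7: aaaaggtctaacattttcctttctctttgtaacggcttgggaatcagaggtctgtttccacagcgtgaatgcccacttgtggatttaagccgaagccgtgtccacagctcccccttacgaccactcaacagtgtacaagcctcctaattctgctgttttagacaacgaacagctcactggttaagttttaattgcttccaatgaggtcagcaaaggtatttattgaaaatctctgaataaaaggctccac
Fgf10: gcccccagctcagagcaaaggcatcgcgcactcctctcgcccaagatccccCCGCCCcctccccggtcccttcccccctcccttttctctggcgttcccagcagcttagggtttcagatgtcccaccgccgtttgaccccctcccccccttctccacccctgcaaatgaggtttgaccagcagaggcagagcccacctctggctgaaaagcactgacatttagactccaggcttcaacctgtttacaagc
Spry1: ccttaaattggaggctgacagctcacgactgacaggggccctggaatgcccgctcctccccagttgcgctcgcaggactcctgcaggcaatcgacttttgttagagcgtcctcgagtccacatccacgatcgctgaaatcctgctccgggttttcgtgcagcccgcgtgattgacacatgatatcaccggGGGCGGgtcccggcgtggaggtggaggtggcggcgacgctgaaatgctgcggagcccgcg
Fgfr3: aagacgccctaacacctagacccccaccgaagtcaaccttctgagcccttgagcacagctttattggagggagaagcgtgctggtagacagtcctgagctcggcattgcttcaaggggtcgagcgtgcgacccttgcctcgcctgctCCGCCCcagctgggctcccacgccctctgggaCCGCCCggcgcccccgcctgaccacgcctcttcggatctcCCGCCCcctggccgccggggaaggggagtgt

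The window of Fgfr3, the gene that rose, held 3 GC boxes, those of Fgf10 and Spry1 held 1 each, and that of Fgf7 held 0. A GC box was present in 32.7% of all 32851 promoter windows of this length. G and C made up 66.8% of the bases for Fgfr3, 62.4% for Spry1, 61.2% for Fgf10 and 43.6% for Fgf7, beside a median of 52.4% over all windows. An ETS motif (CCGGAAGT), an AP-1 motif (TGACTCA or TGAGTCA) and a TATA box (TATAAA) were searched on both strands as well and matched in none of these 4 windows. They matched in 2.88%, 4.46% and 12.4% of all windows, respectively. A match or its absence describes only the letters of these windows.

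Markers of the sorted cells and of other cell types were read in the same libraries. Summed RPKM of the 16 endothelial markers lay between 3384.5 and 5048 in infant and between 5636.7 and 6086.4 in young adult libraries. Defining endothelial transcripts were abundant throughout, with Pecam1 at 309.8 RPKM or more and Cdh5 at 213.8 RPKM or more in every library. The 12 fibroblast markers in the table summed to 1301.4, 337.7 and 915.1 RPKM in infant replicates 1 to 3 and to at most 24.7 RPKM in young adult libraries, and 10 of them were called lower, among them Col1a1 at 305.6, 59.2 and 128.5 RPKM in the infants and no more than 2.0 RPKM in the young adults. Mural markers summed to 308.8, 157.5 and 323.0 RPKM in the infant and to between 92.3 and 104.6 RPKM in the young adult libraries, with 12 of 14 called lower. Most of the young adult sums came from Mcam, the only mural marker with a positive log2 fold change (0.31, not called). Mcam stood at 55.1, 73.5 and 63.9 RPKM in the infants and at 91.2, 75.4 and 72.8 RPKM in the young adults. Epithelial markers summed to between 6564.8 and 11452 RPKM in infant and to between 1872.2 and 8466.6 RPKM in young adult libraries, with 4 of 14 called lower and 1 higher. Of 14 leukocyte markers 5 were called lower, with Ptprc from 3.0 to 7.0 RPKM in the infants and from 0.2 to 1.8 RPKM in the young adults and with sums from 338.5 to 538.9 RPKM in infant and from 142.4 to 569.0 RPKM in young adult libraries. All 7 erythroid markers were called lower, and they summed to 30427, 9655.9 and 79864 RPKM in infant replicates 1 to 3 against at most 1350.7 RPKM in young adult libraries. Of 4 lymphatic endothelial markers 1 was called higher, Lyve1, named here after its values were seen, at 68.6, 171.4 and 82.7 RPKM in the infants and at 396.4, 307.9 and 252.9 RPKM in the young adults, although cells with LYVE1 protein had been gated out. The others went the other way, Pdpn (-0.56), Flt4 (-0.30) and Ccl21a (-0.27), and were not called. In a sorted bulk sample, fewer cells of a type and less RNA per cell cannot be told apart. The Y-linked gene Ddx3y measured 20.6, 16.5 and 21.9 RPKM in infant libraries and was listed at 0.0 in all young adult libraries, although the methods of the study name female mice. Xist, a transcript of female cells, was present in every library. Its infant values were 8.2, 8.7 and 7.6 RPKM, beside young adult values of 15.6, 12.5 and 13.4 RPKM. Each infant library thus held both Ddx3y and Xist, and whether it mixed animals of both sexes was not tested. For each result here age and the sex makeup of the libraries cannot be told apart.

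The ligand Fgf7, known as keratinocyte growth factor, stood at 9.1, 2.1 and 8.2 RPKM in the infants and at 0.2, 0.4 and 0.3 RPKM in the young adults. All infant libraries lay above all young adult libraries, and infant replicate 2 stood far below the other infant libraries. Only infant libraries reached the 1 RPKM needed for testing, so Fgf7 entered the test only through the group where it was higher. The mean fell from 6.47 ± 3.81 to 0.30 ± 0.10 RPKM (SD, n = 3 each), to 0.0464 of its value, or by a log2 fold change of -2.35 ± 0.41 (SE; limma adjusted p 0.00828). Without infant replicate 2 the log2 fold change was -2.89 ± 0.13, and it was -3.82 at a pseudocount of 0.1 and -1.05 at 5, with the call kept in each. In this library 11 of 14 mural markers, all 7 erythroid markers and 35.6% of all tested genes were lowest among the infants. Infant replicate 2 also had the lowest fibroblast sum of the infants, although not every marker followed, since 9 of 12 were lowest and 2 highest in it. The fibroblast receptor gene Pdgfra, 1 of the 9, stood at 87.2, 2.6 and 66.8 RPKM in the infants and at no more than 0.6 RPKM in the young adults. The part of these cells in the fall of Fgf7 was not tested. Fgf7 is located on chromosome 2, 126034658 to 126091185.

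Fgf10 was the least abundant member in infant EC. It stood at 1.4, 1.1 and 1.2 RPKM in the infants and at 0.4, 0.1 and 0.3 RPKM in the young adults, a few steps of the 0.1 RPKM to which the values were rounded. The groups did not overlap, and unlike Fgf7 the infant libraries lay close together. Its mean of 1.23 ± 0.15 RPKM in infant EC compared with 0.27 ± 0.15 RPKM in young adult EC (SD, n = 3 each). The log2 fold change of -0.82 ± 0.15 (limma adjusted p 0.0103) lay just beyond the fold threshold and is understated by the pseudocount of 1, since the ratio of the means was 0.216. Only infant libraries reached the 1 RPKM needed for testing. Fgf10 thus entered the test only through the group where it was higher, which favours a lower call. The call was lost under quantile normalization, where the log2 fold change was -0.40 (adjusted p 0.111), at a pseudocount of 5 (-0.24) and under median-of-ratios scaling (-0.80). Leaving out infant replicate 1 (-0.77) or young adult replicate 2 (-0.73) also ended the call. Fgf10 lies on chromosome 13, 118714699 to 118792573.

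Fgf1, which binds every FGF receptor, was the most abundant ligand in both groups. It stood at 35.6, 69.2 and 39.0 RPKM in the infants and at 26.1, 26.2 and 34.2 RPKM in the young adults. All young adult libraries lay below all infant libraries, with a narrow gap between young adult replicate 3 and infant replicate 1, and infant replicate 2 stood far above the rest. The log2 fold change was -0.66 ± 0.24 (SE), with a 95% confidence interval from -1.23 to -0.09 and a limma adjusted p of 0.0838, and so Fgf1 was not called. Without infant replicate 2 it was -0.37 (adjusted p 0.0756), and after scaling to endothelial markers -1.16 (adjusted p 0.00217), which was called. Fgf1 exceeded Fgf7 and Fgf10 in each library, and among the other 19 FGF ligands listed 1, Fgf18, was tested. Fgf18 stood at 3.0, 0.2 and 3.3 RPKM in the infants and at 0.1 RPKM in each young adult library, and was not called (-1.32 ± 0.45, adjusted p 0.066), except when infant replicate 2 was left out (-1.91, adjusted p 2.52e-05).

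**Figure D1:**
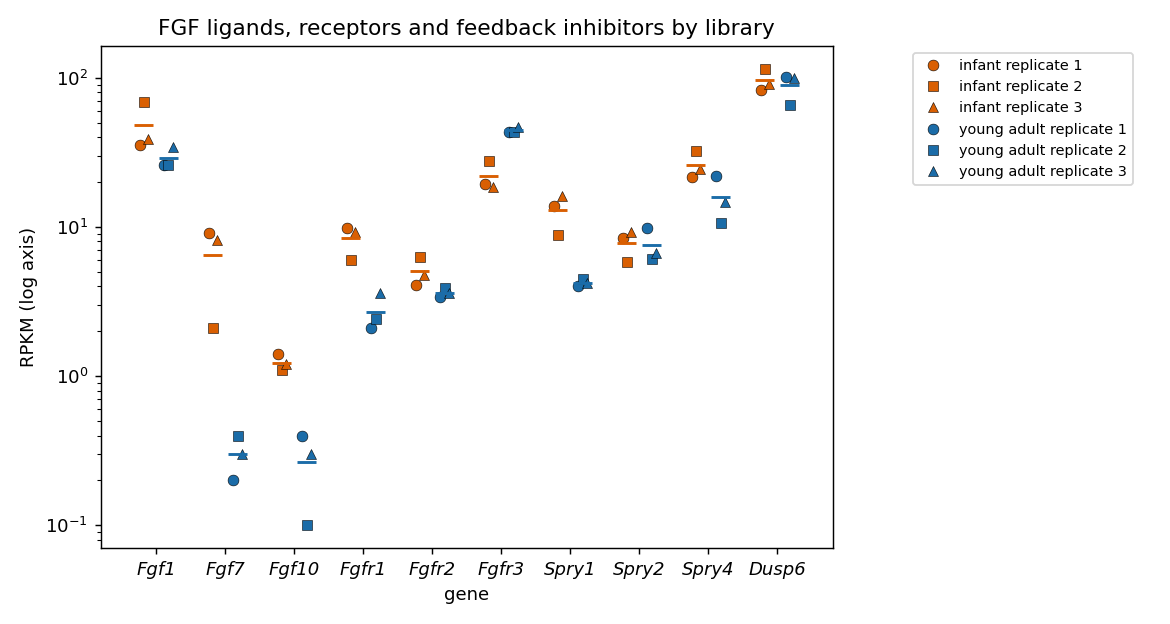
RPKM (log axis) of each of the 10 genes in every library, infant in orange and young adult in blue, with the replicate as marker shape and the group mean as a line. Fgf7, Fgf10, Fgfr1 and Spry1 lie lower and Fgfr3 higher in all young adult libraries, while Spry2, Spry4 and Dusp6 overlap.

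Among the receptors, Fgfr3 and Fgfr1 moved in opposite directions. Fgfr3 stood at 19.3, 27.7 and 18.6 RPKM in the infants and at 43.5, 43.0 and 47.1 RPKM in the young adults. Each young adult library exceeded each infant library by a wide margin, and the young adult values were nearly equal. The mean rose from 21.9 ± 5.06 to 44.5 ± 2.24 RPKM (SD, n = 3 each), 2.04 times as much, with a log2 fold change of 1.01 ± 0.15 (limma adjusted p 0.00495), and it was called without each library in turn. For the 16 endothelial markers the median was 0.39 on the same scale, and 2 of them were called higher. When libraries were scaled to equal endothelial markers, a setting added after seeing the data, the log2 fold change of Fgfr3 was 0.52 ± 0.14 (adjusted p 0.0137), under the fold threshold. This scaling moved the median of all genes from -0.07 to -0.50. Because a single factor per library shifts all genes nearly alike, the distance of Fgfr3 from that median was nearly fixed beforehand. That distance was 1.02 beside 1.09 as deposited and is no further evidence for the rise. Fgfr3 is located on chromosome 5, 33721724 to 33737068.

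Fgfr1 stood at 9.9, 6.0 and 9.3 RPKM in the infants and at 2.1, 2.4 and 3.6 RPKM in the young adults. Every young adult library lay below every infant library, and infant replicate 2 was the lowest of its group. The mean fell from 8.40 ± 2.10 to 2.70 ± 0.79 RPKM (SD, n = 3 each), giving a log2 fold change of -1.34 ± 0.21 (limma adjusted p 0.00553), and the call held without each library in turn. At a pseudocount of 5 the change was -0.79, under the fold threshold. Of 14 mural markers, 11 were likewise lowest and 1 highest in replicate 2 among the infants. This was not particular to the mural list, since 9 of 12 fibroblast markers, all 7 erythroid markers and 35.6% of all tested genes were also lowest there. The mural receptor gene Pdgfrb was among the 11, with 69.4, 17.4 and 57.1 RPKM in the infants and no more than 2.2 RPKM in the young adults, and the part of these cells in the fall of Fgfr1 was not tested. Fgfr1 is on chromosome 8, 25518759 to 25575718.

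Fgfr2, the receptor through which Fgf7 and Fgf10 act, stood at 4.1, 6.3 and 4.8 RPKM in the infants and at 3.4, 3.9 and 3.6 RPKM in the young adults. The groups did not overlap, but the lowest infant and the highest young adult library were close. Its log2 fold change of -0.37 ± 0.14 had a 95% confidence interval from -0.71 to -0.04 and was not called (limma adjusted p 0.0932). After scaling to endothelial markers it was -0.79 (adjusted p 0.00438), still under the fold threshold. Fgfr2 (chromosome 7, 130162451 to 130266808) is an epithelial receptor in the lung. Of the 14 epithelial markers 13 had a negative log2 fold change, beside 7295 of 12458 tested genes, with 4 called lower and 1 called higher. The groups did not overlap in 7 of these markers, near the 43.4% over all tested genes. Epcam, from 0.6 to 1.1 RPKM in the infants and from 0.0 to 0.5 RPKM in the young adults, was not called. The part of epithelial cells in the level of Fgfr2 was not tested.

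Because RPKM is set per length, the receptors can be compared within a library, where scaling has no effect. Of the summed RPKM of Fgfr1, Fgfr2 and Fgfr3, Fgfr3 made up 58.0%, 69.2% and 56.9% in the infants but 88.8%, 87.2% and 86.7% in the young adults. The share of Fgfr1 was 29.7%, 15.0% and 28.4% in infant and 4.29%, 4.87% and 6.63% in young adult libraries. The infant libraries thus held between 1.95 and 4.62 Fgfr3 transcripts for each Fgfr1 transcript on the RPKM scale, and the young adult libraries 20.7, 17.9 and 13.1. Among the infants the ratio was highest in replicate 2, where the fibroblast and mural sums were lowest. Summed over the receptors, the level stood at 33.3, 40.0 and 32.7 RPKM in the infants and at 49.0, 49.3 and 54.3 RPKM in the young adults. These shares describe whole libraries and were not tested, nor was the part of other cell types in them. Fgfr4 was not among the 12623 genes with values, so the shares do not include it.

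The receptor genes had several transcript rows, 3 for Fgfr1, 2 for Fgfr2 and 5 for Fgfr3. Within a gene the rows stood in an almost fixed ratio over the libraries. For Fgfr2, the row NM_010207 was 0.941 to 0.958 of the row NM_201601, and for Fgfr3 the other rows were 0.935 to 0.979 of the row NM_001163216. For Fgfr1 the other rows were 0.917 to 0.972 of its most abundant row. A fixed ratio per row predicted each value to within 0.138 RPKM, near the rounding step. The rows therefore gave no separate measurement of splice forms, and the forms of FGFR2 and FGFR3 that differ in ligand binding could not be told apart.

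**Figure D2:**
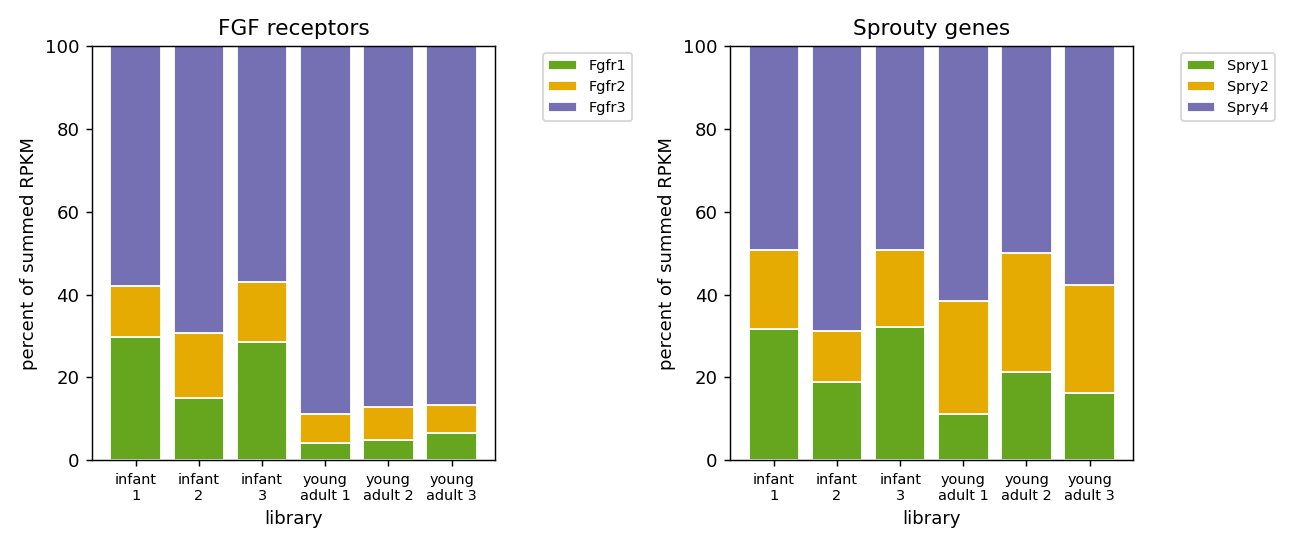
Percent of summed RPKM (y axis) taken by each gene in every library (x axis), for the receptors on the left and the Sprouty genes on the right. Fgfr3 takes 56.9% to 69.2% of receptor RPKM in infant and 86.7% to 88.8% in young adult libraries, while Spry4 takes 49.2% to 68.8% and 50.0% to 61.5% of Sprouty RPKM.

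The feedback inhibitors did not move as a block. Spry1, a Sprouty gene on chromosome 3 (37639947 to 37644599), stood at 13.9, 8.8 and 16.0 RPKM in the infants and at 4.0, 4.5 and 4.2 RPKM in the young adults. The groups were clearly apart and the young adult libraries nearly equal. The mean fell from 12.9 ± 3.70 to 4.23 ± 0.25 RPKM (SD, n = 3 each), 0.328 of the infant level, with a log2 fold change of -1.37 ± 0.19 (limma adjusted p 0.00402). Of the 10 genes Spry1 had the lowest adjusted p, and it was called without each library in turn. Like Fgfr1 and Fgf7, it was lowest in infant replicate 2 among the infant libraries.

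Spry2, on chromosome 14 (105891947 to 105896819), stood at 8.4, 5.8 and 9.3 RPKM in the infants and at 9.8, 6.1 and 6.7 RPKM in the young adults. The groups overlapped over almost their whole range. Its log2 fold change was -0.05 with a 95% confidence interval from -0.53 to 0.42 (limma adjusted p 0.871), an interval within the fold threshold on both sides. Its sign depended on the scaling and on single libraries. It was 0.07 when infant replicate 3 or young adult replicate 2 was left out, -0.23 when infant replicate 2 was, 0.05 under quantile normalization and -0.51 (adjusted p 0.113) after scaling to endothelial markers.

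Spry4, which lies on chromosome 18 (38586247 to 38601347), was the most abundant Sprouty gene in both groups. It stood at 21.6, 32.2 and 24.5 RPKM in the infants and at 22.0, 10.6 and 14.8 RPKM in the young adults. Young adult replicate 1 lay just above the lowest infant library, and the other two young adult libraries lay below all infant libraries. The log2 fold change was -0.73 ± 0.25, with a 95% confidence interval from -1.31 to -0.15 and a limma adjusted p of 0.0683. Spry4 was thus not called, but it was without young adult replicate 1 (-0.98, adjusted p 0.0384), after rescaling without globin genes (-0.83, adjusted p 0.04) and after scaling to endothelial markers (-1.21, adjusted p 0.00422). It was -0.49 (adjusted p 0.193) when young adult replicate 2 was left out and -0.57 (adjusted p 0.12) when infant replicate 2 was. On the same chromosome Fgf1 spans 38838672 to 38929470.

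Dusp6, on chromosome 10 (99263231 to 99267489), was the most abundant member in both groups. It stood at 83.3, 114.8 and 90.1 RPKM in the infants and at 101.2, 65.9 and 99.8 RPKM in the young adults. The lowest value of all was that of young adult replicate 2 and the highest that of infant replicate 2, and the other infant libraries lay below the other young adult libraries. Its log2 fold change of -0.12 had a 95% confidence interval from -0.58 to 0.34 (limma adjusted p 0.68), also within the fold threshold on both sides. When young adult replicate 2 was left out it was 0.08, and when infant replicate 2 was, 0.01. After scaling to endothelial markers it was -0.63 (adjusted p 0.0229), under the fold threshold. Young adult replicate 2 was also the lowest library for Spry4 and the lowest young adult library for Spry2.

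**Figure D3:**
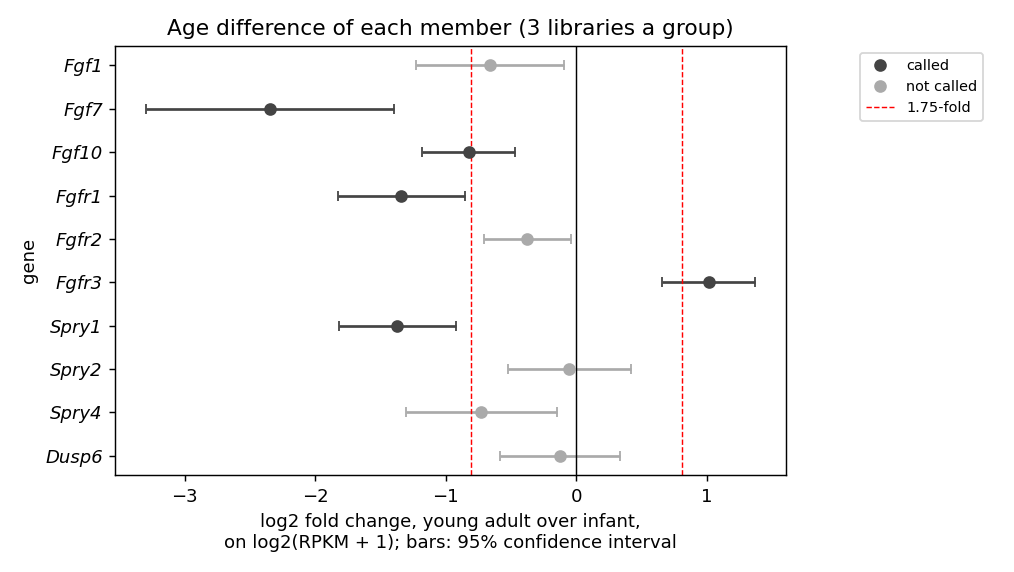
Log2 fold change of young adult over infant EC on the log2(RPKM + 1) scale (x axis) for each gene, with 95% confidence intervals and dashed lines at the fold threshold. Fgf7 (-2.35), Spry1 (-1.37), Fgfr1 (-1.34), Fgf10 (-0.82) and Fgfr3 (1.01) were called, and the intervals of Spry2 and Dusp6 span 0.

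In the order of their levels, infant EC held Dusp6 first (mean 96.1 RPKM), followed by Fgf1 (47.9), Spry4 (26.1), Fgfr3 (21.9), Spry1 (12.9), Fgfr1 (8.40), Spry2 (7.83), Fgf7 (6.47), Fgfr2 (5.07) and Fgf10 (1.23). The values of Spry4 and Fgfr3 overlapped in infant libraries, as did those of neighbours in the order from Spry1 to Fgfr2. In young adult EC the order was Dusp6 (89.0 RPKM), Fgfr3 (44.5), Fgf1 (28.8), Spry4 (15.8), Spry2 (7.53), Spry1 (4.23), Fgfr2 (3.63), Fgfr1 (2.70), Fgf7 (0.30) and Fgf10 (0.27). Here the neighbours Fgfr2 and Fgfr1, and Fgf7 and Fgf10, overlapped. Fgfr3 thereby moved above Fgf1 and Spry4, and Spry2 above Spry1. Among all genes of the table, Dusp6 was exceeded by 3.25% in infant and 4.07% in young adult EC, whereas Fgf7 was exceeded by 49.4% in infant and 95.2% in young adult EC.

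Infant replicate 2 separated the members. Relative to the mean of the other 2 infant libraries, it held 0.243 of the Fgf7, 0.589 of the Spry1, 0.625 of the Fgfr1, 0.655 of the Spry2 and 0.846 of the Fgf10 RPKM. It held 1.86 times the Fgf1, 1.46 times the Fgfr3, 1.42 times the Fgfr2, 1.40 times the Spry4 and 1.32 times the Dusp6 RPKM. The fibroblast sum stood at 0.305 of that in the other infant libraries, the mural sum at 0.499 and the erythroid sum at 0.175. The mural sum includes Mcam, which at 73.5 RPKM was highest in this library among the infants. The endothelial, epithelial and leukocyte sums stood at 1.43, 1.52 and 1.29 times. Each of the 10 genes was thus at an end of its infant values in this library, 5 at the lower and 5 at the upper end. Over all tested genes the library was lowest in 35.6% and highest in 35.7%, so that the position alone is no result about these genes. Without infant replicate 2 the same 5 members were called, while the calls over all genes went from 1424 to 1874. The part of the cells behind these marker lists in the members' differences was not tested.

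**Figure D4:**
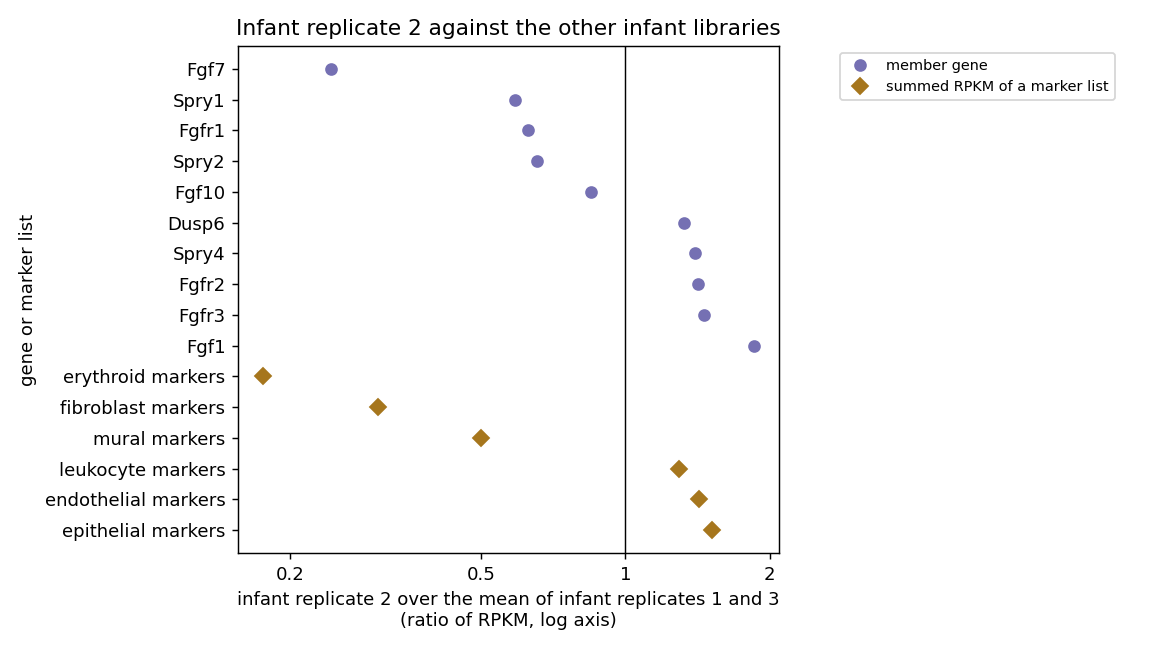
RPKM in infant replicate 2 over the mean of infant replicates 1 and 3 (x axis, log scale) for the 10 genes (circles) and for the summed RPKM of 6 marker lists (diamonds). Fgf7 (0.243), Spry1 (0.589), Fgfr1 (0.625), Spry2 (0.655) and Fgf10 (0.846) lie below 1, as do the erythroid (0.175), fibroblast (0.305) and mural (0.499) sums. Fgf1 (1.86), Fgfr3 (1.46), Fgfr2 (1.42), Spry4 (1.40) and Dusp6 (1.32) lie above 1, as do the epithelial (1.52), endothelial (1.43) and leukocyte (1.29) sums. Over all tested genes this library was lowest of the infants in 35.6% and highest in 35.7%.

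The remaining genes of the pathway were taken from 7 lists with 89 genes, of which 55 were tested. 11 of these (20%) were called lower and 0 higher (limma), against the 8.1% and 3.33% over all genes, and the median log2 fold change was -0.34 beside -0.07 over all genes. At an unadjusted p under 0.05, 24 (43.6%) were lower and 3 (5.45%) higher, against 25.4% and 15% of all genes. The count of 11 depended on single libraries, as did the count over all genes. Leaving out an infant library gave 5 (replicate 1), 14 (replicate 2) or 5 (replicate 3) calls, and leaving out a young adult library gave 4 (replicate 1), 4 (replicate 2) or 7 (replicate 3). Over all genes the same fits gave 927, 1874 and 949 calls without an infant library and 842, 867 and 1228 without a young adult library, in the order of replicates. With quantile normalization 5 were called.

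At the cell surface, the list of heparan sulfate proteoglycans and enzymes of these chains held most of the calls. Of its 17 tested genes 7 were called lower, against 8.1% of all genes, and the median was -0.57. Of these 7, 6 were among the 9 core proteins and 1 was Sulf1, named after its values were seen, whose product removes sulfate. Sulf1 kept its call in only 1 of the 6 fits that left out a library. Among the core proteins, Hspg2 kept it in 1 and Sdc4 in 4, both likewise named after their values were seen. The 4 sulfating enzymes, from -0.35 to 0.24, and the 2 chain polymerases, from -0.49 to -0.12, were not called. The syndecan gene Sdc2 stood at 62.8, 13.2 and 69.5 RPKM in the infants and at 1.3, 2.0 and 1.4 RPKM in the young adults (-3.97 ± 0.55, limma adjusted p 0.00385). The glypican gene Gpc4 stood at 26.7, 3.1 and 21.9 RPKM in the infants and at no more than 1.0 RPKM in the young adults (-3.00 ± 0.64, adjusted p 0.016), and it kept its call in 1 of the 6 fits that left out a library. Both were low in infant replicate 2, where the fibroblast sum was low. Sdc1 (-1.51, adjusted p 0.0118) and Gpc3 (-1.35, adjusted p 0.00157) were called in all 6 such fits, and Gpc3 at 2.2, 2.4 and 2.8 RPKM was not lowest in infant replicate 2. Of 3 other receptors and co-receptors tested, Flrt3, whose product is a membrane partner of FGF receptors, was called lower (-0.87, adjusted p 0.016) and kept the call in 2 of the 6 fits.

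Inside the cell, none of the 11 receptor adaptors and none of the 11 genes of the RAS-ERK cascade was called (limma). At an unadjusted p under 0.05, 4 and 3 of them were lower, and 0 and 1 higher, where 25.4% of all genes were lower and 15% higher. At an adjusted p under 0.05 without the fold threshold, 3 of each list were lower, against 16.2% of all genes. Named after their values were seen, these were the adaptor genes Shc1 (-0.56), Gab1 (-0.53) and Crkl (-0.43), and Nf1 (-0.68), Nras (-0.51) and Braf (-0.44) of the cascade list, where Nf1 encodes an inhibitor of RAS. Their medians were -0.20 and -0.07. Mapk3, which encodes ERK1 and was the most abundant gene of the cascade, measured 102.3 ± 9.21 RPKM in infant and 131.7 ± 12.3 RPKM in young adult EC (SD, n = 3 each; 0.36, adjusted p 0.0669), and the phospholipase gene Plcg1, the most abundant of the adaptor list, measured 19.4 ± 1.21 and 22.9 ± 1.96 RPKM (0.22, adjusted p 0.136). Mapk3 and Plcg1 did not pass the test.

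Among 7 other inhibitors of ERK signalling 1 was called lower, the Sprouty-related gene Spred1, whose product restrains RAS. It stood at 5.0, 4.9 and 5.0 RPKM in the infants and at 2.3, 2.3 and 2.5 RPKM in the young adults. The libraries of each group were almost equal, infant replicate 2 included. Its log2 fold change was -0.83 ± 0.09 (limma adjusted p 0.00197) and the call held in all 6 fits that left out a library. Of 5 ETS factor genes Etv1 and Etv5 were called lower. Etv1 stood at 18.3, 1.4 and 16.9 RPKM in the infants and at no more than 0.8 RPKM in the young adults (-2.53 ± 0.72, adjusted p 0.0385), with infant replicate 2 close to the young adult libraries, and lost its call in 5 of 6 such fits. Etv5 stood at 9.0, 5.7 and 8.3 RPKM in the infants and at 2.6, 3.3 and 5.9 RPKM in the young adults, with an overlap between the groups (-0.85 ± 0.25, adjusted p 0.0446), and lost its call in 4 of 6.

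For each called member the 3 genes with the most alike course over the 6 libraries were identified, by the root mean square difference of log2(RPKM + 1) after centring each gene on its mean. For Fgf7 these were Gm21451 (0.08), Gpm6b (0.08) and Fblim1 (0.09), where Gpm6b, a membrane glycoprotein gene, measured 11.7, 2.7 and 11.0 RPKM in the infants and no more than 0.8 RPKM in the young adults. For Fgf10 they were Ccdc88a (0.07), Kdm5b (0.10) and Armcx3 (0.10). The course of Fgfr1 was closest to 3632451O06Rik (0.10), the atypical cadherin gene Fat1 (0.11) and the semaphorin gene Sema5a (0.11). That of Spry1 was closest to Galm (0.06), 2810417H13Rik (0.08) and Dse (0.09). For Fgfr3 they were the sugar transporter gene Slc50a1 (0.05), Parp10 (0.06) and Insl3 (0.06), with Slc50a1 at 51.9, 78.5 and 54.2 RPKM in the infants and at 117.3, 123.8 and 123.0 RPKM in the young adults. This likeness is a description over 6 libraries and was not tested.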

How the data were processed

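RNA-seq libraries of sorted lung EC (3 infant, 3 young adult) were grouped by their titles. The authors amplified poly(A) RNA with the SMARTer Ultra Low kit, aligned reads with STAR to mm10, counted on RefSeq and deposited RPKM rounded to 1 decimal, 1 row per transcript. The STAR version and the RPKM program are not given in the sources used here. Read counts were not analysed here, so the depth behind each value is unknown and no counting error was attached. Table totals ranged from 362970 to 428155 RPKM.

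Date-like symbols (24 rows) were restored from accessions, and the transcript row with the highest mean was kept per gene. The 12458 genes that reached 1 RPKM in some library were tested by limma (version 3.58.1, R 4.3.3) after transformation to log2(RPKM + 1), using an intensity trend and age as the only term, in place of the count test of the study. The filter and the size of the fold threshold (0.81 on the log2 scale) were taken from the study, which applied the threshold to a count test. On log2(RPKM + 1) it is stricter for low genes. The script was tested on artificial data with known changes. Positions and promoter windows are those of RefSeq on GRCm38.p6. P-values measure the spread between 3 libraries a group. The labels call these independent biological replicates.

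The members and lists were chosen with earlier results of these data known. The text names all members, the called genes of each list (at most 4 by fold change) or otherwise its most abundant gene, the 3 most alike genes of each called member and defining markers. Alternatives were other pseudocounts (0.1 and 5), filters, scalings, variance models and thresholds, a replicate block, other uses of transcript rows and leaving out each library. Scaling to endothelial markers was added after seeing the data. Replicate numbers were not treated as pairs in the main fit. Deviations of same-numbered libraries from their group means correlated at 0.03, -0.11 and -0.02 across genes. With 3 libraries a group this cannot show whether same-numbered libraries were prepared together.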

Additional observations from a re-analysis of the deposited data

How the results depend on the processing

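Of the 5 called genes, Fgfr1, Fgfr3, Spry1 and Fgf7 were called in each of the 6 fits that left out 1 library and Fgf10 in 4. The number of members called was 3 at a pseudocount of 5 and 0 when limma treat tested against the fold threshold itself, where 3 members had an unadjusted p under 0.05. The number of pathway genes called, 11, was 3 at a pseudocount of 5, 5 under quantile normalization, 1 under treat, 20 without a fold threshold, 23 after scaling to endothelial markers and 4 to 14 when 1 library was left out. Over all genes, 1424 were called, and 578, 176, 3176 and 2678 with a pseudocount of 5, treat, no fold threshold and endothelial scaling, and 842 to 1874 without 1 library (lowest without young adult replicate 1, highest without infant replicate 2). Of these calls 29.1% were higher, against 46.5% under quantile normalization, which moved the median of all genes to 0.04, and 6.46% under endothelial scaling. The sign of Spry2, never called, turned under quantile normalization (0.045) and median-of-ratios scaling (0.0077), and its log2 fold change ranged from -0.23 to 0.069 without 1 library. That of Dusp6 ranged from -0.23 to 0.078. The cause of these changes was not tested. The filter on a mean RPKM of 1 removed Fgf10. With a replicate block 5 members, 10 pathway genes and 1371 genes were called. No pairing beyond a shared number is given in the sources used here, and infant replicate 1 correlated best with young adult replicate 2. Depth is unknown, and values under 1 RPKM, as for Fgf7 and Fgf10 in young adult EC, are limited by rounding to 0.1.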
